A study of Mus musculus with 22 samples.

Results

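The genes described here are the integrin and laminin chain genes: every gene whose single symbol in the array annotation is that of an integrin alpha chain, an integrin beta chain or a laminin chain. They number 36 of the 19938 genes measured, with 18 integrin alpha chains, 8 integrin beta chains and 10 laminin chains. The rule reads symbols alone, but the family was taken up with earlier results of these data known. Each gene is represented by 1 probe set, the one with the highest mean where there were several. That choice arose for Itgad alone, whose 2 probe sets averaged 7.01 and 6.35 on the log2 scale.

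RNA came from pancreatic islets, islet tumours and liver metastases of RIP1-TAG2 mice, a model of pancreatic neuroendocrine tumours in which the insulin promoter drives a viral oncogene in beta cells. There were 3 arrays of normal islets, 3 of hyperplastic islets, 3 of angiogenic islets, 5 of islet tumours, 5 of metastasis-like primary tumours and 3 of liver metastases. All 6 tissues carry the same RIP1-TAG2 genotype in the labels, the normal islets included, so no tissue here is free of the transgene. Ages are not stated, and neither is the basis on which a primary tumour was assigned to the metastasis-like class.

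Integrins are adhesion receptors made of 1 alpha and 1 beta chain. The pair of chains sets the ligand: laminin, collagen, proteins with an RGD motif such as fibronectin and vitronectin, or counter-receptors on other cells. Laminins are trimers of an alpha, a beta and a gamma chain and form the scaffold of basement membranes together with collagen IV, nidogen and perlecan. In the islet the basement membrane lies mainly along the capillaries. It is laid down largely by endothelium, and beta cells contact it through integrins that contain the Itgb1 chain.

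The values are log2 intensities from 22 whole-transcript arrays, with array medians between 7.08 and 7.22. Precision is bounded by how few arrays there are, no 2 arrays held the same values (highest correlation 0.995), and levels of different genes are not compared because each has its own probes. Differences were tested with limma on all 22 arrays, and a gene was called at a Benjamini-Hochberg adjusted p below 0.05 over all 19938 genes. Nothing in the labels says that the arrays of a tissue came from separate animals, so the p-values measure the spread between these samples. The mean of 9 beta-cell markers lay between 11.38 and 11.63 in normal and hyperplastic islets, between 10.52 and 10.99 in islet tumours, and between 8.44 and 9.61 in metastasis-like primaries and liver metastases. Markers of hepatocytes averaged 10.55 to 10.98 in the liver metastases and 6.36 to 7.28 in both kinds of primary tumour; in angiogenic islets they averaged 6.81, 8.25 and 9.01 on AngiogenicI-93, Angiogenic2006 and Angiogenic2007. Xist, which is expressed in female cells, stood between 10.67 and 11.41 on the 9 islet arrays and between 5.33 and 6.46 on the 13 arrays of tumours and metastases. Sex and the step between islets and tumours therefore cannot be told apart.

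The chains differed more between tissues than most genes did, and most of them were highest in angiogenic islets. The distance between the highest and lowest of the 6 tissue means had a median of 0.81 over the 36 genes and 0.43 over all genes, and it reached 1 for 13 of 36 chains (36.1%) and for 3600 of all genes (18.1%). The angiogenic islet mean was the highest of the 6 for 22 chains (61.1%), against 10.1% of all genes. Normal islets and liver metastases were the low ends, with 13 and 14 chains at their lowest there (36.1% and 38.9%), against 20.4% and 27.8% of all genes.

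**Figure D1:**
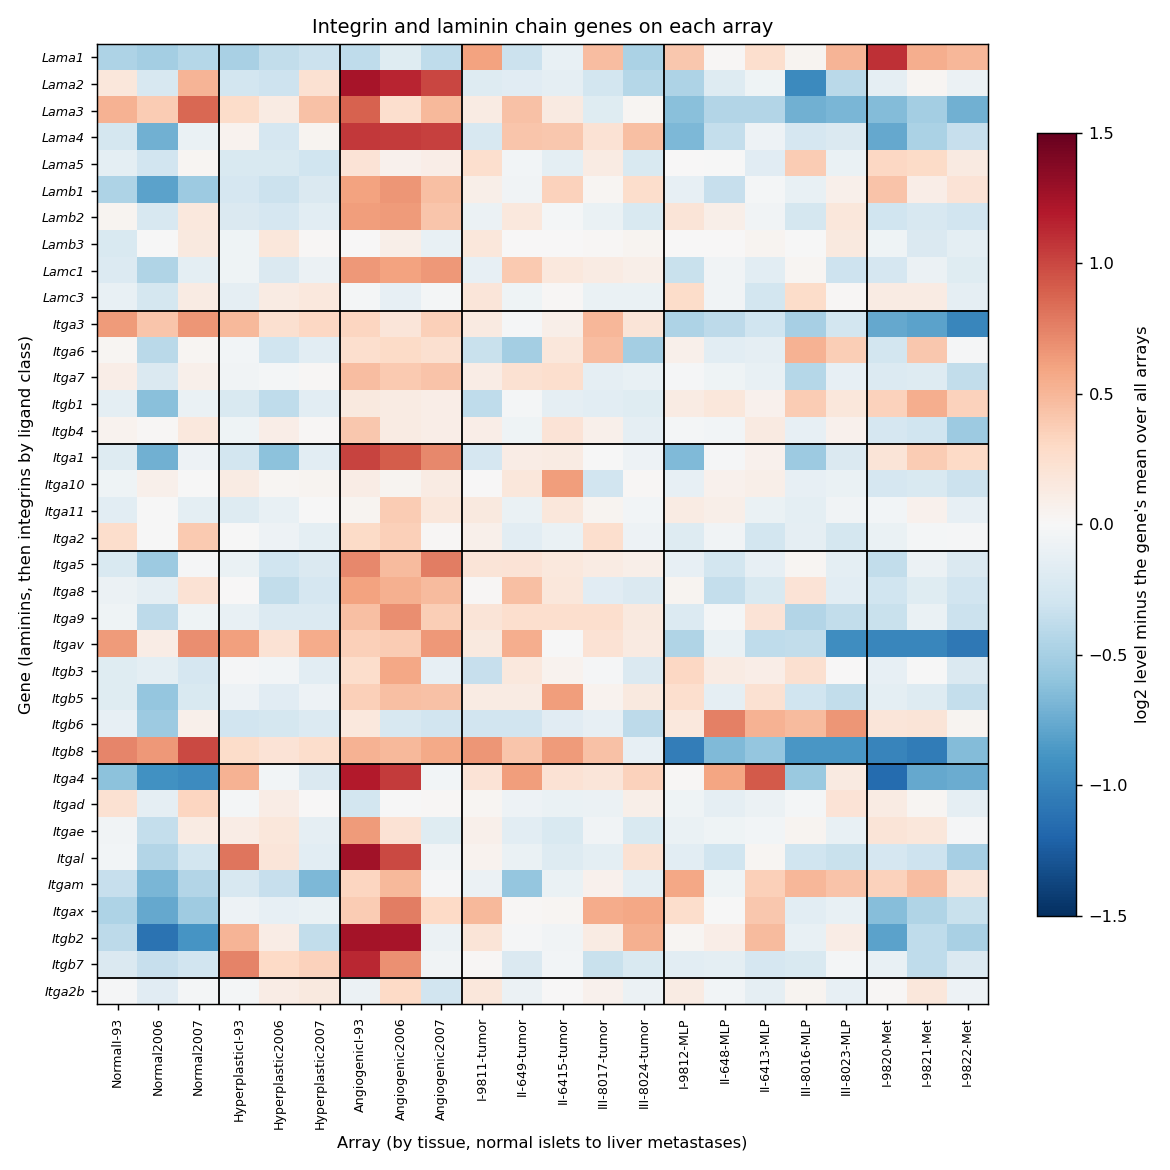
Log2 level of each of the 36 chain genes on each of the 22 arrays, after subtracting the gene's mean over all arrays (red above, blue below; colours saturate at 1.5). Vertical lines separate the 6 tissues and horizontal lines separate laminins, integrins by ligand class and the platelet integrin; the block of red in the 3 angiogenic columns spans Lama2, Lama4, Lamb1, Lamb2, Lamc1, Itga1, Itga5, Itga8 and Itga9.

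Angiogenic islets carried higher levels of several laminin chains than hyperplastic islets did, among them Lama4 of the endothelial basement membrane. Of the 36 chains, 11 were higher and 0 lower, where 2.53% of all genes were called (2.29% higher, 0.246% lower); the median difference was 0.38 over the chains and -0.04 over all genes. Of the 10 laminin chains, 5 rose: Lama2, Lama4, Lamb1, Lamb2 and Lamc1. They comprise 2 alpha chains, both common beta chains and the common gamma chain.

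Lama4, the alpha chain of the endothelial basement membrane, stood at 8.91, 8.90 and 8.88 in angiogenic islets, against 7.91, 7.60 and 7.90 in hyperplastic islets. The difference was 1.09 ± 0.18 (SE; 2.13-fold, adjusted p = 9.65e-04). Lama2, the alpha chain best known from muscle and nerve and made by mesenchymal cells, stood at 8.27, 8.18 and 8.04 in angiogenic islets, against 6.76, 6.73 and 7.27 in hyperplastic islets. All angiogenic arrays lay above all hyperplastic ones for both chains, and the Lama2 difference was 1.24 ± 0.19 (2.37-fold, adjusted p = 5.67e-04). Lamb1, a beta chain found in most laminins of the vessel wall, read 9.09, 9.15 and 8.95 in angiogenic islets and 8.23, 8.16 and 8.27 in hyperplastic islets, a difference of 0.84 ± 0.12 (adjusted p = 3.12e-04). Its alternative, Lamb2, rose by 0.77 ± 0.12 (adjusted p = 5.67e-04). Lamc1, the gamma chain shared by nearly all laminins, read 9.65, 9.61 and 9.66 in angiogenic islets, against 8.94, 8.80 and 8.92 in hyperplastic islets. The Lamc1 groups were each tight and far apart, with a difference of 0.76 ± 0.12 (adjusted p = 5.31e-04). Lama5, the broadly expressed alpha chain of mature basement membranes, averaged 7.78 ± 0.07 in angiogenic islets and 7.40 ± 0.04 in hyperplastic islets (SD, n = 3 each). The groups did not overlap, but the difference of 0.38 ± 0.13 was not called (adjusted p = 0.155). Lama1, Lama3, Lamb3 and Lamc3 differed by -0.11 to 0.26 and were not called either.

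Of the 26 integrin chains 6 rose: Itga1, Itga5, Itga7, Itga8, Itga9 and Itgam, which differ in ligand. Itga1, the alpha chain of a collagen and laminin receptor, stood at 9.57, 9.47 and 9.28 in angiogenic islets, against 8.29, 7.94 and 8.40 in hyperplastic islets, a difference of 1.23 ± 0.18 (2.35-fold, adjusted p = 3.93e-04). Itga5, which pairs with Itgb1 as the classical fibronectin receptor, read 8.04, 7.80 and 8.10 in angiogenic islets and 7.22, 7.02 and 7.10 in hyperplastic islets. Its difference of 0.86 ± 0.11 had the smallest adjusted p of all chains in this comparison (1.34e-04). Itga9, a receptor chain for tenascin and other matrix proteins, rose by 0.68 ± 0.13 (adjusted p = 0.00508), and Itga8, an RGD receptor chain of mesenchymal cells, by 0.74 ± 0.16 (adjusted p = 0.00891). Itga7, a laminin receptor chain of muscle and vessel wall, rose by 0.45 ± 0.12 (adjusted p = 0.0415), and Itgam, a chain of the myeloid integrins, by 0.68 ± 0.17 (adjusted p = 0.034). The angiogenic and hyperplastic arrays did not overlap for any of the 6. These chains were picked as called, and the uncalled Lama5 and Itgb1 did not overlap either. The share of all genes without overlap was not computed. The Itga7 and Itgam calls were the least firm: leaving out single arrays gave adjusted p up to 0.151 for Itga7 and 0.202 for Itgam, and Itga8 reached 0.07 without Hyperplastic2006.

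**Figure D2:**
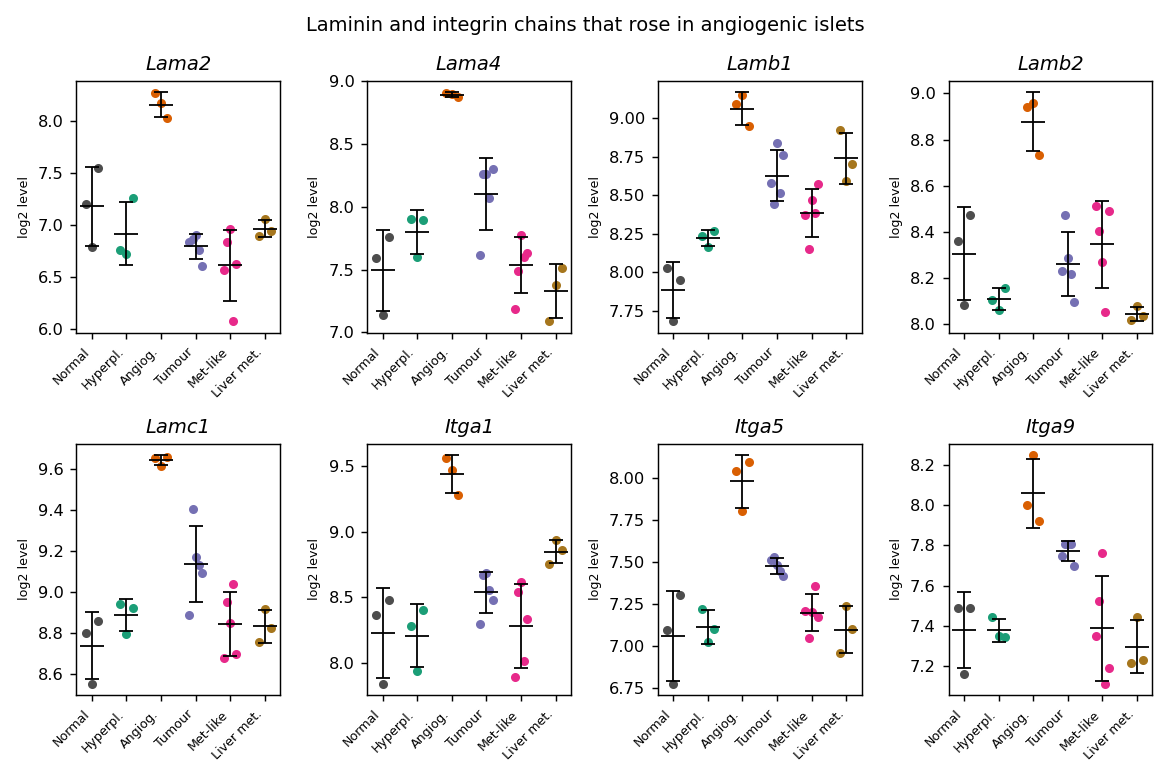
Log2 level of 5 laminin and 3 integrin chains in the 6 tissues; points are arrays, horizontal bars are means and vertical bars are ± 1 SD. In each panel the 3 angiogenic arrays lie above the 3 hyperplastic ones, and the islet tumour mean lies below the angiogenic mean.

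The partner chain Itgb1 and the remaining laminin receptor chains were not called. Itgb1, the common beta chain of the laminin, collagen and fibronectin receptors, averaged 10.72 ± 0.02 in angiogenic islets and 10.34 ± 0.11 in hyperplastic islets (SD, n = 3 each); the groups did not overlap, and the difference of 0.38 ± 0.12 was not called (adjusted p = 0.111). Itga6, the main laminin receptor alpha chain of epithelia, differed by 0.43 ± 0.23 (adjusted p = 0.435), Itga3 by -0.06 ± 0.11 (adjusted p = 0.871) and Itgb4, the hemidesmosome chain, by 0.19 ± 0.10 (adjusted p = 0.452). Itgav, the alpha chain of the vitronectin receptors, read 10.35, 10.36 and 10.64 in angiogenic islets and 10.61, 10.20 and 10.54 in hyperplastic islets. The Itgav arrays of the 2 tissues were intermixed.

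Of the genes that act beside the chains, those of the matrix gave most of the calls. Of 14 other basement membrane genes 8 rose and 0 fell, with a median difference of 0.58; the smallest adjusted p belonged to the collagen IV chains Col4a1 (0.96 ± 0.11) and Col4a2 (0.98 ± 0.11), both at 7.27e-05. Of 17 integrin ligands 8 rose and 0 fell, with a median of 0.50. Fn1, the gene of fibronectin, averaged 10.44 ± 0.20 in angiogenic islets and 8.17 ± 0.20 in hyperplastic islets (SD, n = 3 each), a difference of 2.27 ± 0.22 (adjusted p = 1.07e-05). Tnc, the gene of tenascin-C, rose by 1.22 ± 0.18 (adjusted p = 4.49e-04). On the intracellular side, of 20 genes of the integrin adhesion complex 2 rose and 0 fell (median 0.23), namely Lims2 (0.48 ± 0.10, adjusted p = 0.0126) and Vcl, the gene of vinculin (0.63 ± 0.16, adjusted p = 0.0325). None of 5 other laminin receptors was called by limma (1 had an unadjusted p below 0.05), and the median over these receptors was 0.02.

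Markers of stromal cells moved in the same direction, and in bulk tissue fewer or more cells of a type and less or more RNA per cell cannot be told apart. Of 12 endothelial markers 7 rose and 0 fell, and their mean lay between 8.86 and 9.24 on the angiogenic arrays and between 8.29 and 8.40 on the hyperplastic arrays. Of 9 fibroblast markers 8 rose, with array means of 9.31 to 9.59 in angiogenic islets and 7.89 to 7.97 in hyperplastic islets. Pericyte and smooth muscle markers rose for 5 of 9 genes, with array means of 8.92 to 9.34 against 7.87 to 8.49, and macrophage markers for 7 of 10, with array means of 8.19 to 8.75 against 7.60 to 7.78. Hepatocyte markers were called for 0 of 9 by limma (6 had an unadjusted p below 0.05), with a median difference of 1.17 and array means of 6.81 to 9.01 against 6.79 to 7.15. Their part in the chain differences was not tested.

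Promoter windows were available from RefSeq for 23 of the 36 genes (26 windows, 250 bases before to 50 after a transcript start, build GRCm38.p6). The windows below belong to the laminin and the integrin with the smallest adjusted p in angiogenic islets among genes with a window (Lamb1 and Itga5), and to Itgam, the myeloid chain called in the same comparison; they were chosen after the values were seen. Capitals mark matches, on either strand, to the GC box GGGCGG and to the purine-rich GAGGAAG, a motif of the ETS type, and no match overlaps another in the windows shown. Lamb1 (chr12:31265043-31265342, plus strand) and Itga5 (chr15:103366742-103367041, minus strand) each held 2 GC boxes and 0 purine-rich motifs, and Itgam (chr7:128062390-128062689, plus strand) held 1 and 2.
Lamb1: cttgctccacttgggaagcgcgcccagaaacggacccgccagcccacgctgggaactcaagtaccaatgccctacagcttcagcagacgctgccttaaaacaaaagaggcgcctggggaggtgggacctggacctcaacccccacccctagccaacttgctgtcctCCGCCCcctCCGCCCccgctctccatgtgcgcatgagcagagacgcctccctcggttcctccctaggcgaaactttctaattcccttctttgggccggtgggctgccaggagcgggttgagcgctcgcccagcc
Itga5: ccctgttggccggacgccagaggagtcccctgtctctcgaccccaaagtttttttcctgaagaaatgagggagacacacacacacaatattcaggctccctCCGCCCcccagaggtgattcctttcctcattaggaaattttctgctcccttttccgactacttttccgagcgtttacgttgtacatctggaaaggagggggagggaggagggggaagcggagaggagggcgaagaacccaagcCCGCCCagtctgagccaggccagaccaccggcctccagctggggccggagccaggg
Itgam: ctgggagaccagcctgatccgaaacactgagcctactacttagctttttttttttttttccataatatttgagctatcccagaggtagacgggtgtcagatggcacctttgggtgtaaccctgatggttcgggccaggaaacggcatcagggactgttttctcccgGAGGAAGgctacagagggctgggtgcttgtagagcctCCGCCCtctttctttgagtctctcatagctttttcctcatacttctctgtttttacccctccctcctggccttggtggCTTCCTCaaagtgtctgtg
GGGCGG occurred in 12 of the 26 windows of these chains (46.2%) and in 35.7% of the 32851 mouse windows. GAGGAAG occurred in 8 of 26 (30.8%) and in 13.6% of all windows. These are counts of letters and do not show binding.

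Against angiogenic islets, 0 of the 36 chains were higher in islet tumours and 11 lower, where 9.54% of all genes were called (3.09% higher, 6.45% lower). Of the 11 chains that had risen in angiogenic islets 9 were among those lower, and Itga9 (-0.28 ± 0.12, adjusted p = 0.141) and Itgam (-0.44 ± 0.15, adjusted p = 0.077) were not. This comparison uses the same 3 angiogenic arrays, so its direction is not independent of the one above. Chains picked for being high on those arrays are biased towards a fall, and the matching share of all genes that had risen was not computed. The median was -0.30 over the chains and 0.05 over all genes. Lama2 read 6.84, 6.87, 6.91, 6.76 and 6.61 in islet tumours, against 8.27, 8.18 and 8.04 in angiogenic islets, a difference of -1.36 ± 0.17 (2.57-fold lower, adjusted p = 3.27e-05). Itga1 read 8.30, 8.67, 8.69, 8.56 and 8.48 in islet tumours, against 9.57, 9.47 and 9.28 in angiogenic islets, a difference of -0.90 ± 0.16 (adjusted p = 0.00124). Tumours and angiogenic islets were fully separated for both genes. Lama4 fell by 0.79 ± 0.16 (adjusted p = 0.00327), Lamb2 by 0.62 ± 0.10 (adjusted p = 8.25e-04), Lamc1 by 0.51 ± 0.10 (adjusted p = 0.00342) and Itga5 by 0.50 ± 0.10 (adjusted p = 0.00334). Smaller decreases were called for Lamb1 (-0.44, adjusted p = 0.0131), Itga8 (-0.49, adjusted p = 0.0296) and Itga7 (-0.36, adjusted p = 0.0329), and for the leukocyte chains Itgb7 and Itgal described below. The count rested partly on AngiogenicI-93: without it 6 chains were called, and Lamb1 (adjusted p = 0.072), Itga7 (0.149), Itga8 (0.147), Itgal (0.267) and Itgb7 (0.0951) were not among them. Without Angiogenic2006, Lamb1 (0.0726), Itga7 (0.0799), Itga8 (0.0862) or Itgal (0.14) was not called either. Itga7 and Itga8 were also lost without Angiogenic2007 (0.0742 and 0.0513), and without tumour III-8017 (0.0614 and 0.0555) or III-8024 (0.071 and 0.0648). With the title code as a replicate block, described below, they had adjusted p of 0.0863 and 0.121. Itga8 was lost without tumour I-9811 (0.0517), and Itgal without II-649 (0.0523) or II-6415 (0.058). Of the other basement membrane genes 0 rose and 7 of 14 fell, of the integrin ligands 1 rose and 8 of 17 fell, and of the adhesion complex genes 0 rose and 3 of 20 fell. Tnc (-1.50 ± 0.16, adjusted p = 6.81e-06) and Vtn, the gene of vitronectin (-1.24 ± 0.15, adjusted p = 2.14e-05), had the smallest adjusted p among the ligands. Endothelial markers fell for 9 of 12 genes and fibroblast markers for 9 of 9; their array means lay at 8.25 to 8.64 and 7.68 to 8.28 in islet tumours, against 8.86 to 9.24 and 9.31 to 9.59 in angiogenic islets. Hepatocyte markers fell for 8 of 9, with array means of 6.36 to 6.70 in islet tumours and 6.81, 8.25 and 9.01 in angiogenic islets; Vtn is itself a plasma protein made by liver. Lymphocyte markers fell for 7 of 10, pericyte and smooth muscle markers for 5 of 9 and markers of other islet endocrine cells for 5 of 7. Their part in the difference was not tested.

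Set against normal islets, islet tumours had higher levels of the laminin chain Lamb1, of Itga5 and of the leukocyte chains described below. Of the 36 chains 9 were higher and 3 lower (33.3% in all), where 29% of all genes were called (13% higher, 16.1% lower), so the share was close to that of all genes. Lamb1 read 8.58, 8.44, 8.84, 8.52 and 8.76 in islet tumours, against 8.03, 7.68 and 7.95 in normal islets, a difference of 0.74 ± 0.11 (adjusted p = 1.71e-05). Itga5 rose by 0.42 ± 0.10 (adjusted p = 0.00321), Itgb5, a vitronectin receptor chain, by 0.55 ± 0.14 (adjusted p = 0.00551), Itga9 by 0.39 ± 0.12 (adjusted p = 0.0153), Lama4 by 0.61 ± 0.16 (adjusted p = 0.00579) and Lamc1 by 0.40 ± 0.10 (adjusted p = 0.00484). Itga3, a laminin receptor chain of epithelial cells, fell by 0.40 ± 0.10 (adjusted p = 0.00426), Lama3, the alpha chain of the epithelial laminins, by 0.48 ± 0.14 (adjusted p = 0.0121) and Itgb8 by 0.39 ± 0.14 (adjusted p = 0.0478). The arrays of tumours and normal islets overlapped for all 3 chains that fell and for Lama4. Normal2006 was the lowest of the normal arrays for 31 of 36 chains, and without it the calls of Itga9 (adjusted p = 0.132), Itgb5 (0.0597), Lama4 (0.0752), Lamc1 (0.0532), Itgb2 (0.0519) and Itgb8 (0.052) were lost. Without Normal2006 the split was 4 higher and 5 lower, and Itga2 (-0.33, adjusted p = 0.028), Itgad (-0.31, adjusted p = 0.0316) and Lama2 (-0.58, adjusted p = 0.0228) were among those lower. Lama3 was not called without Normal2007 (adjusted p = 0.108). Markers of other islet endocrine cells had array means of 8.15 to 8.82 in islet tumours and 10.89 to 11.15 in normal islets. Acinar markers averaged 10.50, 11.01 and 8.20 on NormalI-93, Normal2006 and Normal2007, and 10.36 to 10.77 in islet tumours. For endothelial markers the array means were 8.25 to 8.64 in islet tumours and 8.39 to 8.74 in normal islets. Their part in the chain differences was not tested. As an alternative the title code was used as a replicate block, taking NormalI-93 and tumour I-9811 to share code I, which alone links the 2 tissues. What the codes stand for is not stated, and that link was not tested. With this block Lama4 differed by 0.11 (adjusted p = 0.638), Lamc1 by 0.15 (0.399), Itga9 by 0.32 (0.161) and Itgb8 by -0.37 (0.186), and none of these 4 was called.

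The leukocyte chains Itga4, Itgal, Itgb2 and Itgb7 varied strongly between angiogenic arrays (SD 0.67, 0.69, 0.77 and 0.60), and Itgb7 was already higher in hyperplastic islets. Hyperplastic islets differed from normal islets in 2 of the 36 chains (5.56%), 1 higher and 1 lower. Of all genes 8.64% were called (4.46% higher, 4.17% lower), so the share of the chains was below that of all genes. Itgb7, the beta chain of lymphocyte homing receptors, read 7.49, 7.04 and 7.09 in hyperplastic islets, against 6.52, 6.40 and 6.46 in normal islets, a difference of 0.75 ± 0.19 (adjusted p = 0.0133). Itgb8 read 7.81, 7.74 and 7.80 in hyperplastic islets, against 8.27, 8.18 and 8.53 in normal islets, a difference of -0.55 ± 0.16 (adjusted p = 0.0359). Neither group overlapped the other for these chains, although neither call held without HyperplasticI-93 (adjusted p = 0.0899 and 0.083), and the Itgb8 call was also lost without NormalI-93 (0.0602), Normal2007 (0.161), Hyperplastic2006 (0.104) or Hyperplastic2007 (0.088). The Itgb7 call was lost without Normal2006 (adjusted p = 0.0556). The normal and hyperplastic arrays carry the same codes in their titles, and arrays of one code deviated together. With the code as a replicate block 4 chains were called: Itga4, a lymphocyte and monocyte chain that binds Vcam1 (0.91, adjusted p = 0.016), and Itgb2, the common beta chain of leukocyte integrins (0.88, adjusted p = 0.0146), joined Itgb7 and Itgb8. Without the block Itga4 and Itgb2 had adjusted p of 0.072 and 0.0556.

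In angiogenic islets the lymphocyte-type chains were high on 2 arrays and low on the remaining one. Itgal, the alpha chain of the lymphocyte integrin that binds Icam1, read 8.28 and 8.02 on AngiogenicI-93 and Angiogenic2006 but 6.97 on Angiogenic2007, against 7.83, 7.21 and 6.86 in hyperplastic islets. Itga4 read 9.17, 9.04 and 7.95 in angiogenic islets in the same array order, against 8.51, 7.94 and 7.77 in hyperplastic islets. Itgb2 read 8.97, 8.96 and 7.64 in angiogenic islets, against 8.23, 7.84 and 7.36 in hyperplastic islets. None of these chains was called between angiogenic and hyperplastic islets (adjusted p = 0.439, 0.366 and 0.242). The mean of 10 lymphocyte markers ranged from 6.37 to 8.69 across the angiogenic arrays, from 6.86 to 8.07 across the hyperplastic arrays and from 6.40 to 6.50 across the normal arrays, and Angiogenic2007 was the low angiogenic one. Without Angiogenic2007, Itga4, Itgal, Itgax, Itgb2 and Itgb3 were called as well and the count of called chains was 15. The part of lymphocyte number in these values was not tested.

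In islet tumours Itgax, Itga4 and Itgb2 were higher than in normal islets. Itgax, the chain of dendritic cells and macrophages, read 7.94, 7.46, 7.48, 8.0 and 8.03 in islet tumours, against 6.98, 6.68 and 6.91 in normal islets, a difference of 0.92 ± 0.15 (adjusted p = 6.61e-05). Itga4 rose by 1.13 ± 0.27 (adjusted p = 0.00298) and Itgb2 by 0.95 ± 0.25 (adjusted p = 0.00597) between the same groups, while Itgal differed by 0.21 ± 0.22 (adjusted p = 0.522) and Itgb7 by 0.12 ± 0.17 (adjusted p = 0.653). Tumours and normal islets did not overlap for Itgax, Itga4 or Itgb2, but with the replicate block Itga4 (0.61, adjusted p = 0.154) and Itgb2 (0.50, adjusted p = 0.22) were not called. Itgam averaged 6.34 ± 0.24 in islet tumours (SD, n = 5) and 6.02 ± 0.18 in normal islets (SD, n = 3) and was not called (adjusted p = 0.134). Against angiogenic islets, Itgb7 fell by 0.75 ± 0.17 (adjusted p = 0.00683) and Itgal by 0.77 ± 0.22 (adjusted p = 0.0294) in tumours, with tumour arrays overlapping Angiogenic2007. Macrophage markers were called higher in tumours than in normal islets for 8 of 10 genes, with array means of 8.10 to 8.78 in tumours and 7.39 to 7.53 in normal islets. Lymphocyte markers were called by limma for 0 of 10 (1 had an unadjusted p below 0.05), with array means of 6.21 to 6.68 in tumours and 6.40 to 6.50 in normal islets. The part of cell number was not tested.

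**Figure D3:**
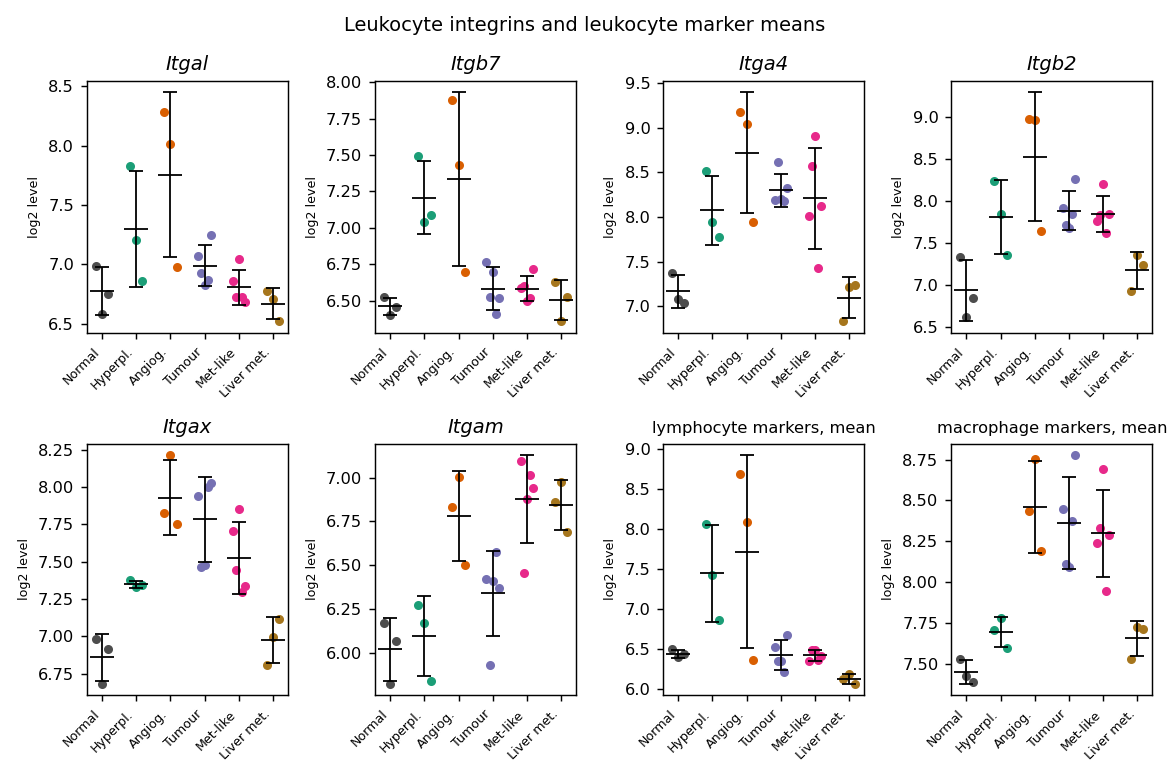
Log2 level of 6 leukocyte integrin chains and the mean log2 level of the lymphocyte and macrophage markers in the 6 tissues; points are arrays and bars are means ± 1 SD. Itgal and Itgb7 spread widely over the hyperplastic and angiogenic arrays like the lymphocyte markers. Itgax has its highest tissue means in angiogenic islets, islet tumours and metastasis-like primaries (7.93, 7.78 and 7.53).

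Metastasis-like primaries had lower levels of both chains of a receptor that activates latent TGF-beta and a higher level of another beta chain of that class. Of the 36 chains 3 were higher and 8 lower (30.6% in all) than in islet tumours, where 26.5% of all genes were called (12.3% higher, 14.2% lower). The median was -0.12 over the chains and -0.02 over all genes. Itgb8, which pairs only with Itgav, read 6.49, 6.87, 6.96, 6.66 and 6.66 in metastasis-like primaries, against 8.19, 7.96, 8.17, 7.97 and 7.41 in islet tumours. Every metastasis-like array lay below every tumour array, and the difference was -1.21 ± 0.12 (2.32-fold lower, adjusted p = 1.67e-07). Itgav itself read 9.54, 9.88, 9.61, 9.61 and 9.06 in metastasis-like primaries, against 10.13, 10.53, 9.98, 10.21 and 10.12 in islet tumours, a difference of -0.65 ± 0.14 (adjusted p = 0.00103). Itgb6, an epithelial partner of Itgav, read 5.92, 6.51, 6.28, 6.24 and 6.43 in metastasis-like primaries, against 5.48, 5.47, 5.60, 5.64 and 5.36 in islet tumours. It rose by 0.77 ± 0.12 (1.70-fold, adjusted p = 2.56e-05) with no overlap, from a low signal: the lower quartile of all gene means was 6.20. Itgb5 and Itgb3, the other Itgav partners measured besides Itgb1, were not called (-0.28 ± 0.12, adjusted p = 0.105, and 0.23 ± 0.11, adjusted p = 0.143).

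The promoter windows of Itgb8 and Itgav, the 2 chains of that receptor, are shown because both genes fell; capitals mark the same motifs as above. The Itgav window (chr2:83724147-83724446, plus strand) held 1 GC box and 1 GAGGAAG, and the Itgb8 window (chr12:119238227-119238526, minus strand) held 0 of each.
Itgav: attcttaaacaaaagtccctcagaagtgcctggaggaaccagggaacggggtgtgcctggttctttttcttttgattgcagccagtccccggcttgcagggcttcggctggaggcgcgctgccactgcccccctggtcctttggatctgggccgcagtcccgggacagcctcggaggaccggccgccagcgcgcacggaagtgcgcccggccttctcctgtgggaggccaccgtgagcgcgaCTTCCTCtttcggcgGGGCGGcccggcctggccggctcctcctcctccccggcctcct
Itgb8: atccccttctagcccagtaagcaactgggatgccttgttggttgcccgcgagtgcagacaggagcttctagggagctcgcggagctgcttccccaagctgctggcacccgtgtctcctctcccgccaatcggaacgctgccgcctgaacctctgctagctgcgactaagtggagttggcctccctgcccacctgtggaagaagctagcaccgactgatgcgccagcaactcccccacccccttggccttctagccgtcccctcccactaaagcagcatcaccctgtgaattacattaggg
The absence of a match concerns these letters in this window alone.

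Epithelial laminin and its receptor chain fell as well. Lama3 read 6.36, 6.54, 6.54, 6.27 and 6.30 in metastasis-like primaries, against 7.10, 7.42, 7.12, 6.81 and 7.01 in islet tumours, a difference of -0.69 ± 0.12 (adjusted p = 1.55e-04). Itga3 read 7.48, 7.54, 7.64, 7.44 and 7.66 in metastasis-like primaries, against 8.08, 7.92, 8.03, 8.44 and 8.14 in islet tumours, a difference of -0.57 ± 0.09 (adjusted p = 3.29e-05). For both genes the highest metastasis-like array lay below the lowest tumour array. Lamb3, the beta chain that joins Lama3 in the epithelial laminin, averaged 6.79 ± 0.07 in metastasis-like primaries and 6.80 ± 0.07 in islet tumours (SD, n = 5 each; adjusted p = 0.951). Lama4 (-0.56 ± 0.14, adjusted p = 0.00354) and Lamc1 (-0.29 ± 0.09, adjusted p = 0.0164) fell with overlapping arrays. The Lamc1 call was lost without tumour II-649 (adjusted p = 0.059) or metastasis-like primary I-9812 (0.0526) or III-8023 (0.0501). Itga9 fell by 0.39 ± 0.10 (adjusted p = 0.00709), with overlap, and Itga5 by 0.28 ± 0.09 (adjusted p = 0.0212), a call lost without metastasis-like array II-648 (adjusted p = 0.0636). Itgb1 was higher, at 10.72, 10.76, 10.66, 10.98 and 10.76 in metastasis-like primaries against 10.22, 10.57, 10.47, 10.44 and 10.42 in islet tumours, a difference of 0.36 ± 0.09 (adjusted p = 0.00529). The groups did not overlap for Itgb1. Itgam rose by 0.54 ± 0.13 (adjusted p = 0.00408) with overlapping arrays.

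**Figure D4:**
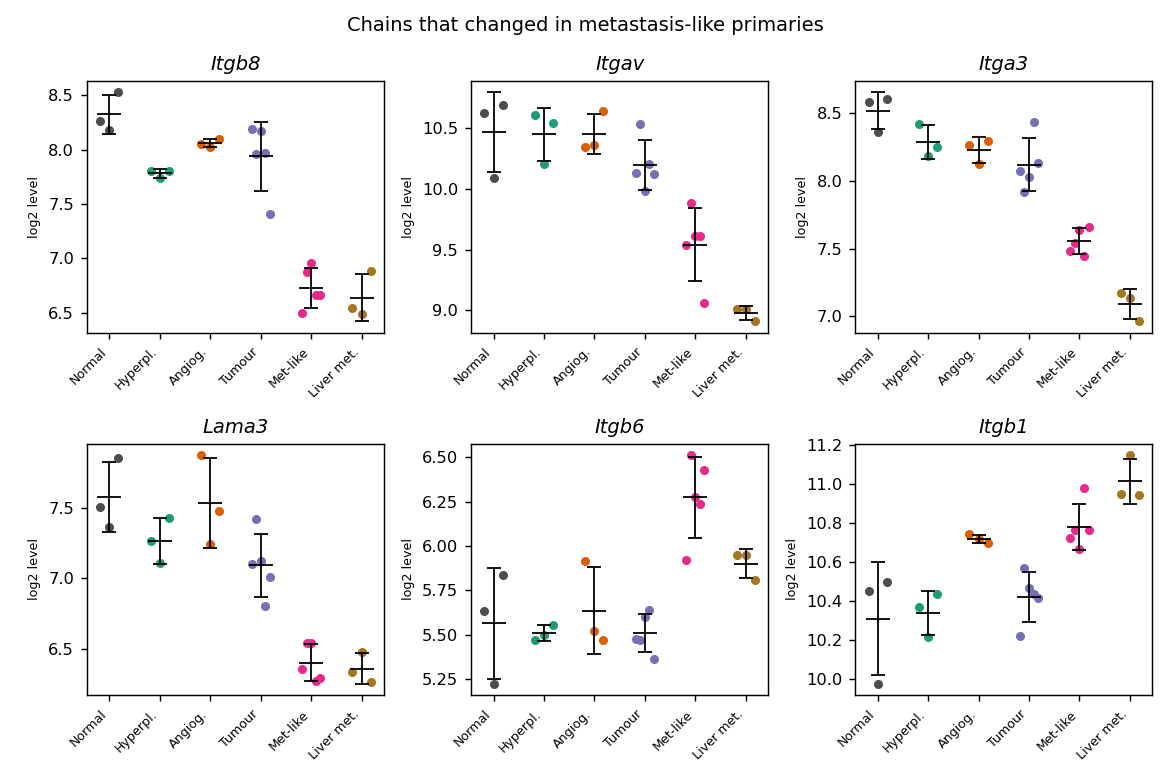
Log2 level of 6 chains in the 6 tissues; points are arrays, horizontal bars are means and vertical bars are ± 1 SD. Itgb8, Itgav, Itga3 and Lama3 are lower, and Itgb6 and Itgb1 higher, on all 5 metastasis-like arrays than on all 5 islet tumour arrays.

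Among related genes, 20% of the adhesion complex, 11.8% of the ligands, 42.9% of the other basement membrane genes and 40% of the other laminin receptors were called, beside 26.5% of all genes. Of the 5 other laminin receptors 0 rose and 2 fell, led by Bcam, a receptor for laminins that contain Lama5 (-0.76 ± 0.10, adjusted p = 4.56e-06). Of 14 other basement membrane genes 1 rose and 5 fell; Hspg2, the gene of perlecan, fell by 0.63 ± 0.08 (adjusted p = 5.49e-06), whereas Agrn, the gene of agrin, rose by 0.51 ± 0.07 (adjusted p = 2.15e-05). Of 20 adhesion complex genes 1 rose and 3 fell, with Tln2, a talin, at -0.80 ± 0.11 (adjusted p = 9.72e-06). Among 17 ligands 0 rose and 2 fell: Cdh1, the gene of E-cadherin and the ligand of the integrin that contains Itgae (-1.94 ± 0.20, adjusted p = 2.57e-07), and Thbs1, the gene of thrombospondin-1 (-0.57 ± 0.16, adjusted p = 0.0115). Endothelial markers fell for 10 of 12 genes, with array means of 7.49 to 7.85 in metastasis-like primaries and 8.25 to 8.64 in islet tumours. Beta-cell markers fell for 9 of 9, and ductal markers for 2 of 6, with ductal array means of 6.88 to 7.59 in metastasis-like primaries and 7.50 to 8.04 in islet tumours. Macrophage markers rose for 0 of 10 and fell for 1, and fibroblast markers rose for 1 of 9 and fell for 0. The part of these cell types in the chain differences was not tested.

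**Figure D5:**
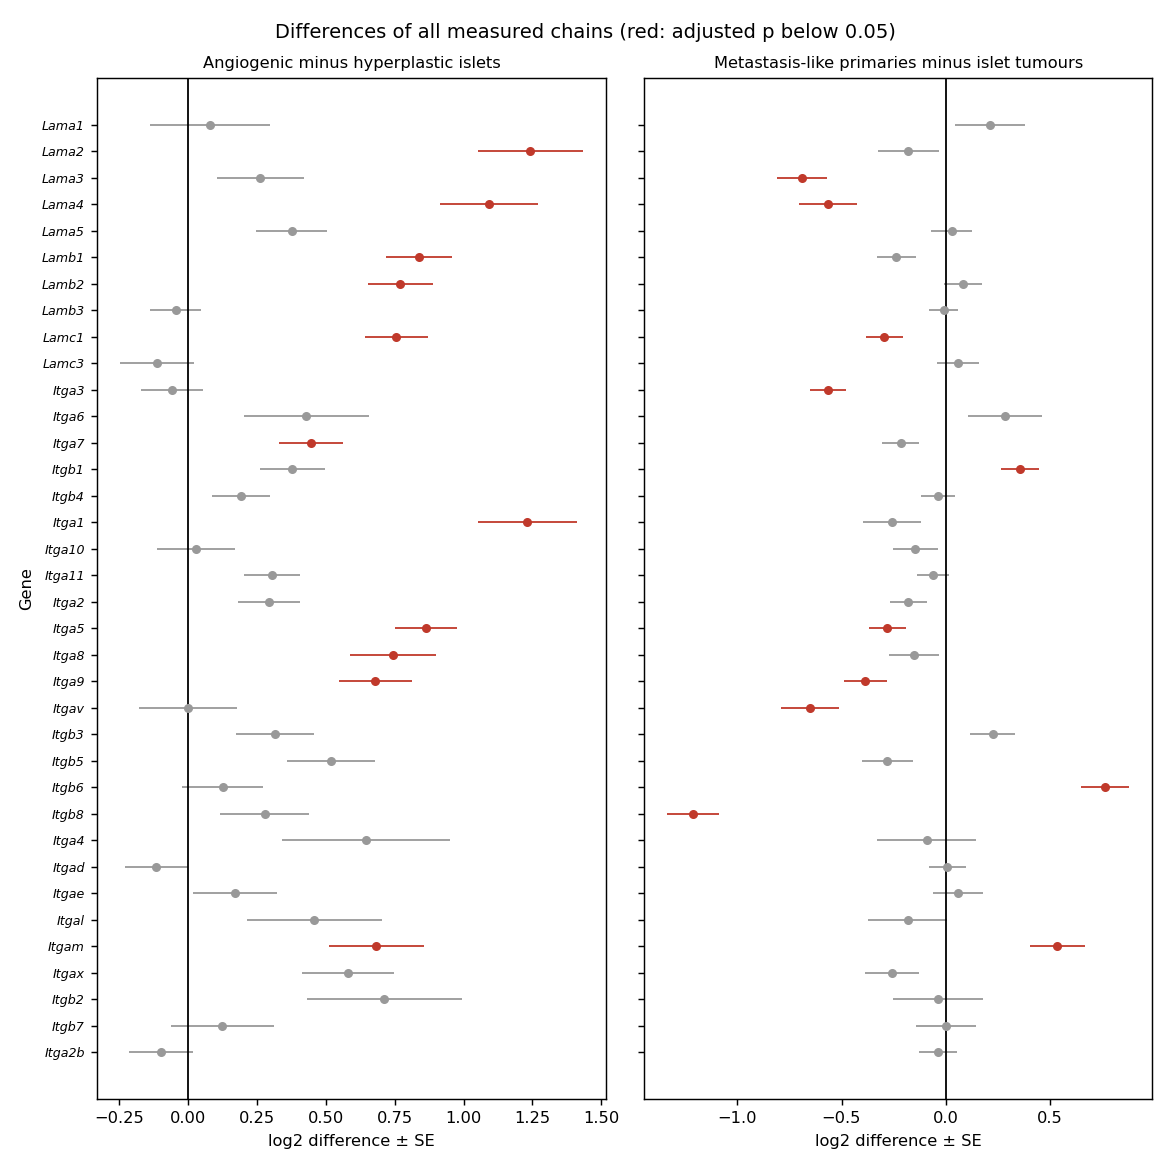
Log2 difference ± SE for all 36 chains between angiogenic and hyperplastic islets (left) and between metastasis-like primaries and islet tumours (right); red points have an adjusted p below 0.05. On the left the 11 red points all lie right of 0; on the right 3 lie right and 8 lie left of 0, with Itgb8 farthest out at -1.21.

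Liver metastases differed from metastasis-like primaries in 7 chains, 2 higher and 5 lower (19.4% in all), where 15.7% of all genes were called. Itga3 was lower still, at 7.17, 7.14 and 6.97 in liver metastases, against 7.48, 7.54, 7.64, 7.44 and 7.66 in metastasis-like primaries, a difference of -0.46 ± 0.10 (adjusted p = 0.00289). Itgav read 9.01, 9.01 and 8.91 in liver metastases and lay below every metastasis-like array, the lowest of which was 9.06; its difference was -0.56 ± 0.16 (adjusted p = 0.0196). Itgb4 fell by 0.36 ± 0.09 (adjusted p = 0.0106). Acinar markers had array means of 8.63 to 9.31 in liver metastases and 9.17 to 11.20 in metastasis-like primaries. For ductal markers the array means were 6.73 to 7.09 against 6.88 to 7.59. The part of these epithelial cells was not tested. The leukocyte chains Itga4 (-1.11 ± 0.27, adjusted p = 0.0077) and Itgax (-0.55 ± 0.15, adjusted p = 0.0152) fell. Macrophage markers fell for 7 of 10 in the same comparison, with array means of 7.53 to 7.73 in liver metastases and 7.95 to 8.69 in metastasis-like primaries, and their part was not tested. Itga1 rose by 0.57 ± 0.16 (adjusted p = 0.0193) and Lamb1 by 0.35 ± 0.11 (adjusted p = 0.0299). Hepatocyte markers rose for 8 of 9 genes, with array means of 10.55 to 10.98 in liver metastases against 6.92 to 7.28 in metastasis-like primaries, and Vtn, a plasma protein made by liver, rose by 3.17 ± 0.15 (adjusted p = 5.19e-12); whether the Itga1 and Lamb1 signal came from liver cells was not tested. With 3 metastases the calls were sensitive: leaving out the metastasis I-9820 or I-9822 left 3 chains called, and Itga3 alone was called under every alternative. Without I-9820 the calls of Lamb1 (adjusted p = 0.184), Itgax (0.0912), Itgav (0.0536) and Itga4 (0.0523) were lost. Without I-9822 those of Itgb4 (0.102), Itgav (0.0829), Lamb1 (0.0714) and Itga1 (0.0671) were lost. Of the other basement membrane genes 0 rose and 2 of 14 fell.

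Against islet tumours, the same metastases differed in 19 chains, 4 higher and 15 lower (52.8% in all), where 36.6% of all genes were called (17.3% higher, 19.3% lower). Both comparisons use the same 3 metastases. Itgb8 read 6.54, 6.48 and 6.88 in liver metastases, against 8.19, 7.96, 8.17, 7.97 and 7.41 in islet tumours (-1.30 ± 0.14, adjusted p = 3.7e-07). Itgav fell by 1.22 ± 0.16 (adjusted p = 3.95e-06), Itga3 by 1.03 ± 0.10 (adjusted p = 6.76e-08) and Lama3 by 0.73 ± 0.14 (adjusted p = 2.89e-04), all without overlap. Between metastases and metastasis-like primaries, Itgb8 differed by -0.09 ± 0.14 (adjusted p = 0.748) and Lama3 by -0.04 ± 0.14 (adjusted p = 0.897). Itgb1 read 10.95, 11.15 and 10.95 in liver metastases, above every islet tumour array, a difference of 0.59 ± 0.11 (adjusted p = 1.46e-04). Lama1, an alpha chain best known from embryonic basement membranes, read 8.18, 7.62 and 7.58 in liver metastases, against 7.68, 6.76, 6.97, 7.55 and 6.61 in islet tumours (0.68 ± 0.19, adjusted p = 0.00861). Lama1 arrays overlapped between the 2 tissues, and the call was lost without metastasis I-9820 (adjusted p = 0.0884), with only the compared arrays (0.0575) and with the replicate block (0.32, adjusted p = 0.339). All 3 metastases carry code I, and with that block Lamc1 (-0.10, adjusted p = 0.524), Lama4 (-0.35, adjusted p = 0.0681), Itgam (0.35, adjusted p = 0.132), Itga10 (-0.28, adjusted p = 0.117) and Itgb2 (-0.68, adjusted p = 0.0519) were not called either. The remaining calls were Itgam (0.50) and Itgb6 (0.39) on the higher side, and Itga4 (-1.20), Itgax (-0.81), Lama4 (-0.78), Itgb2 (-0.71), Itga9 (-0.47), Itgb5 (-0.45), Itgb4 (-0.40), Itga5 (-0.38), Itga10 (-0.37), Itga7 (-0.33) and Lamc1 (-0.30) on the lower side, with adjusted p between 2.12e-04 and 0.0298. Of these, Itga10 (0.0837), Itga7 (0.0955), Itgb2 (0.0615), Itgb5 (0.088) and Lamc1 (0.0665) were not called without metastasis I-9822. Without I-9820 Itga10 (0.0567), Itgb2 (0.135), Itgb6 (0.081) and Lamc1 (0.0991) were not called, and without I-9821 Itgam (0.0738) and Itgb6 (0.0839) were not. Endothelial markers fell for 10 of 12, with array means of 7.58 to 7.69 in liver metastases and 8.25 to 8.64 in islet tumours. Macrophage markers fell for 8 of 10, with array means of 7.53 to 7.73 in liver metastases and 8.10 to 8.78 in islet tumours, and hepatocyte markers rose for 9 of 9, with array means of 10.55 to 10.98 against 6.36 to 6.70. Their part in these differences was not tested.

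Of the 36 chains, 10 were called in none of the 7 comparisons (27.8%, against 41.3% of all genes). They were the collagen receptor chains Itga2 and Itga11, the epithelial laminin receptor chain Itga6, the platelet chain Itga2b and its partner Itgb3, the leukocyte chains Itgad and Itgae, and the laminin chains Lama5, Lamb3 and Lamc3. Itga6 was among the most variable within a tissue, ranging from 8.58 to 9.55 across the islet tumours and from 8.93 to 9.62 across the metastasis-like primaries. Itga2b averaged between 6.95 and 7.09 in all 6 tissues.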

How the data were processed

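RNA was measured on Affymetrix whole-transcript mouse arrays; the deposited table holds log2 values that the authors made from the array intensities with aroma.affymetrix, per the series' design text, and the normalization was not given in the sources used here. Of 35511 probe sets, 21789 carried a single symbol in the platform annotation, 1621 carried several and 12101 were not listed there; 999 genes had several probe sets, and the one with the highest mean was used. Tissues came from the labels. 7 contrasts were fitted with limma 3.58.1 in R 4.3.3 (one mean per tissue, empirical Bayes, two-sided, Benjamini-Hochberg over all 19938 genes). Alternatives were the title code as a block, median centring, a fit of the 2 compared tissues alone, quantile normalization, leaving out the dimmest 25% of genes, the mean of all probe sets, array weights, trended and robust variances, and each array left out. The procedure was tested on simulated data with independent noise, in which 200 genes per comparison were changed by 1. It recovered 91% to 97% of them, with 3 to 19 false calls per comparison. The simulated arrays lack the shared deviations of same-code arrays given next, so they do not test the p-values under those. Same-code islet arrays deviated together from their tissue means (correlations of deviations 0.06 to 0.48, other codes -0.39 to 0.04). Each tissue was centred on its own mean, so positive same-code correlations push the others down and the ranges are not independent. The codes were taken to pair normal with hyperplastic and hyperplastic with angiogenic islets, where all exceeded 0.1. The main fit did not use this pairing. The members and gene lists were chosen with earlier results of these data known. All members are named by role; of each other list, up to 2 genes with the smallest adjusted p per comparison are named. Of the lists not described in the report, neutrophil markers were called for at most 1 of 7 genes, Schwann cell and neuron markers for at most 1 of 5, mesothelium markers for at most 1 of 4 and platelet markers for at most 1 of 4 in any comparison; acinar markers fell for 6 of 7 and 8 of 9 beta-cell markers fell in liver metastases against islet tumours. Promoter sequences are RefSeq's (GRCm38.p6).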

Additional observations from a re-analysis of the deposited data

Results flagged for a closer look

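Of 72 sets of 5 arrays tested for a single outlying value (36 chains in islet tumours and in metastasis-like primaries), 5 had an array farther from its nearest neighbour than Dixon's 95% criterion allows, and chance alone flags about 1 in 20 of the sets tested. Itga7 was low in the metastasis-like primary III-8016, at 6.55, with the next array at 6.85. Itgad was high in the metastasis-like primary III-8023, at 7.22, with the next at 6.98. Itgb5 was high in the islet tumour II-6415, at 9.91, with the next at 9.43. Lamb3 was high in the islet tumour I-9811, at 6.92 (next 6.80), and in the metastasis-like primary III-8023, at 6.90 (next 6.79).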

How the results depend on the processing

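Of 73 calls of a chain in the 7 comparisons, 38 held under every alternative that tested the chain: 0 of 2 for hyperplastic against normal islets, 8 of 11 for angiogenic against hyperplastic islets, 6 of 11 for islet tumours against angiogenic islets, 4 of 12 for islet tumours against normal islets, 9 of 11 for metastasis-like primaries against islet tumours, 1 of 7 for liver metastases against metastasis-like primaries and 10 of 19 for liver metastases against islet tumours. Itgb6 was among the dimmest 25% of genes, so the alternative without those genes did not test it. Its call in metastasis-like primaries against islet tumours was counted as held. No chain changed direction past the threshold. For hyperplastic against normal islets the count of called chains was 2, with 4 under the replicate block, 5 with only the compared arrays and 0 to 2 with single arrays left out (0 without HyperplasticI-93, 1 without Hyperplastic2006 or Normal2007). For islet tumours against angiogenic islets it was 11, with 6 from only the compared arrays and 6 to 13 with single arrays left out. For liver metastases against metastasis-like primaries it was 7, with 4 under the replicate block, 14 with array weights and 3 to 9 with single arrays left out (3 without metastasis I-9820 or I-9822). The replicate block gave 11 for angiogenic against hyperplastic islets, the same genes; for islet tumours against normal islets, where code I alone links the 2 tissues, it gave 8 in place of 12, with 6 genes in both. The other total counts stayed within 1.5 times, although for islet tumours against normal islets the split of 9 higher and 3 lower became 4 and 5 without Normal2006. Median centring moved the split of all called genes: 781 higher and 1277 lower in place of 890 and 832 for hyperplastic against normal islets, 373 and 114 in place of 456 and 49 for angiogenic against hyperplastic islets, 1176 and 1097 in place of 617 and 1286 for islet tumours against angiogenic islets, 2096 and 4092 in place of 2584 and 3201 for islet tumours against normal islets, 1891 and 1317 in place of 1556 and 1570 for liver metastases against metastasis-like primaries, and 3736 and 3432 in place of 3451 and 3845 for liver metastases against islet tumours. The causes of these changes were not tested, and array number and low signal limit the precision for dim chains.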
